A study of Mus musculus with 2 samples.

Results

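The cells described here are cultured mouse lung fibroblasts with the highest levels of DNA replication transcripts and few mitotic ones, here called S phase cells. They were chosen in both libraries of the study among cells with at least 5000 UMIs (unique molecular identifiers, each marking 1 captured RNA molecule), at most 20% of UMIs from mitochondrial genes, and under 4 UMIs per 10,000 summed over the 8 mitotic genes Mki67, Top2a, Cdk1, Ube2c, Birc5, Tpx2, Ccnb2 and Cenpf. Within each library the cells of this pool at or above the 90th percentile of the S phase score were taken. The score is the sum of Mcm3, Mcm4, Mcm5, Mcm6, Pcna, Tyms, Gins2, Cdc6, Ccne2 and Clspn UMIs per 10,000. The rule gave 309 of 5016 barcodes in the control library and 398 of 7698 in the stimulated library, 707 of 12714 in all. They were compared with the other 2774 and 3581 cells of the same pools.

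A cell that commits to division copies its genome once, in S phase. In late G1 the E2F transcription factors are freed from the retinoblastoma protein and switch on genes for the helicase that opens the DNA, the clamp and polymerases that copy it, the enzymes that make deoxynucleotides, and the proteins that rebuild chromatin behind the fork. Mitotic genes follow later, in G2, through other promoter elements. In the lung, fibroblasts of the adult organ divide rarely, whereas in culture with serum many of them cycle.

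Both libraries came from cultured lung fibroblasts of wild-type C57BL/6 mice at passage 3, 1 library per group. The control cells received vehicle and the stimulated cells were treated for 14 days. The protocol names rosiglitazone at 10 µM, SB4315442 at 1 µM and rhBMP4 at 4 µM, alone or combined, with ITS+3 at 1% and fetal bovine serum at 10%, and the labels do not say which agents the stimulated library received. Control cells came from the same lung, per the labels, and no group has a second library. Differences between libraries are therefore differences between these 2 libraries with no replicate check, no test was run, and the 95% intervals given below cover counting error only. UMIs of 1 cell are not independent draws, so that these intervals are narrow. In all, 53 barcodes occurred in both libraries, among them 3 control and 4 stimulated S phase cells. Doublets were not removed.

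S phase cells were as deep as the rest of their pool. The median was 20478 UMIs in the control S phase cells and 20325 in the other pool cells, and 15351.5 against 15228 in the stimulated library. Slightly more genes were detected per cell, a median of 3994 against 3811.5 in control and 3341.5 against 3139 in stimulated cells. Mitochondrial UMIs were at a median of 1.27% in control S phase cells against 1.44% in the other cells, and at 1.06% against 1.14% in the stimulated library. The S phase cells together held 6447026 UMIs in control and 6414578 in stimulated cells.

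The score is a continuous range and not a class with a gap. The 90th percentile lay at 2.08 UMIs per 10,000 in control and 2.81 in stimulated cells, so that the same score can be inside in 1 library and outside in the other. In the control library the last cell outside had a score of 2.077 and the first inside 2.080, and in the stimulated library these were 2.809 and 2.824. Within 25% of the threshold lay 86 S phase cells and 162 other cells of the control pool, and 110 and 227 of the stimulated pool. The median score was 3.27 in control S phase cells against 0.438 in the others, and 4.13 against 0.649 in the stimulated library. These scores rest on a median of 7 rule gene UMIs per S phase cell in either library, against 1 in the other cells. In 37 control and 20 stimulated S phase cells the score came from 3 or fewer UMIs. A score of 0 was found in 36.1% of the control pool and 31.6% of the stimulated pool.

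**Figure D1:**
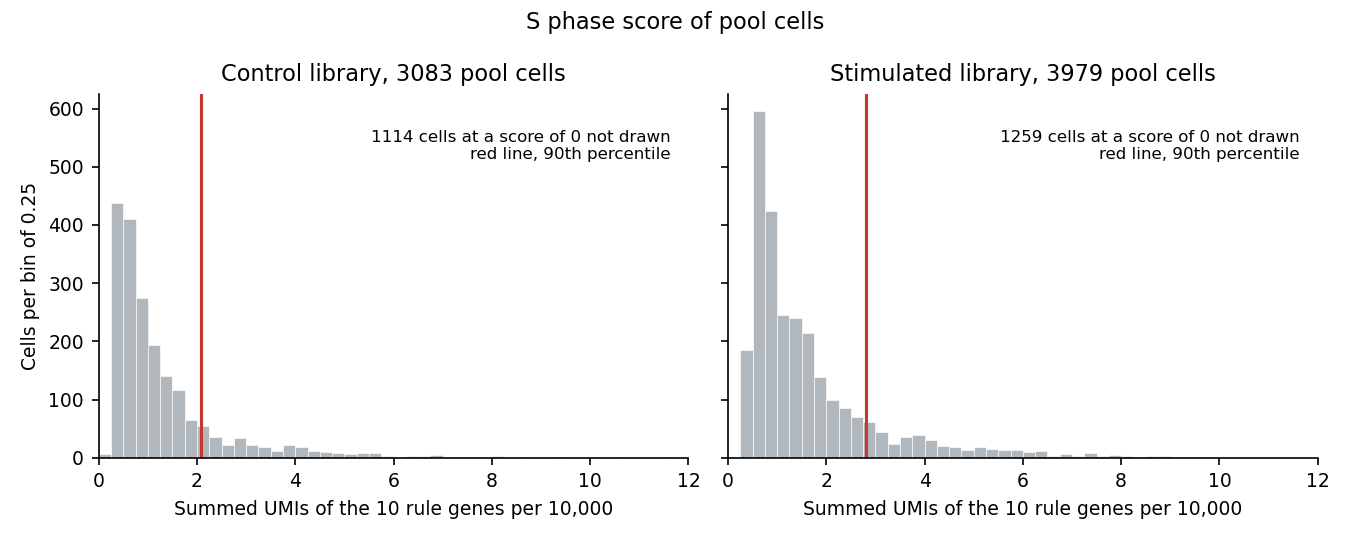
Number of pool cells (vertical axis, per bin of 0.25) by S phase score (horizontal axis, summed UMIs of the 10 rule genes per 10,000) in the control (left) and stimulated (right) library, with the red line at the 90th percentile, 2.08 and 2.81. The counts fall smoothly across the line, and 1114 control and 1259 stimulated cells at a score of 0 are not drawn.

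The mitotic limit removed most cells with high replication transcripts. Of the cells with enough UMIs, 935 in the control reached the score threshold and 626 of them (67.0%) were over the limit on mitotic genes. In the stimulated library 1655 reached it and 1257 (76.0%) were over the limit. The S phase cells are thus the part of the replicating cells with few mitotic transcripts. DNA content was not measured, and since the rule genes are switched on before replication starts, cells of late G1 and of S phase cannot be told apart by the score.

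Every one of the 6 S phase markers Mcm5, Mcm6, Pcna, Gins2, Ccne2 and Clspn is also a rule gene. The markers therefore cannot check the label. Genes outside the rule are described below. Those measured were kept in part through their level in the S phase cells, so that they are no independent check either. Most S phase cells carried several rule genes, a median of 4 of the 10 in control and 5 in stimulated cells. A single gene gave over 50% of the score in 55 control and 34 stimulated S phase cells, and 16 and 2 S phase cells held none of the 6 markers. Tyms, which makes the thymidine nucleotide, gave the largest part of the score, 22.9% of its UMIs in the control and 16.9% in the stimulated S phase cells. Gins2, a subunit of the replicative helicase, gave 15.2% and 16.0%, and Mcm6, a subunit of the ring at its core, 12.7% and 14.1%.

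S phase cells kept fibroblast transcripts at levels near those of the other cells. All 12 fibroblast markers reached the floor of 20 CPM (counts per 1e6 UMIs of the summed cells) used throughout, and none was 1.5-fold higher or lower in either library. Of all genes outside the rule, 4.97% of the control and 4.45% of the stimulated genes were that much higher, and 0.499% and 0.738% that much lower. Summed, the fibroblast markers were at 7792 CPM in control S phase cells against 8560 CPM in the other control cells, and 3583 against 3774 CPM in the stimulated library. Epithelial markers summed to 0.310 and 0 CPM and lymphocyte markers to 0.310 and 0.156 CPM in control and stimulated S phase cells.

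Cells with macrophage transcripts were found among the control S phase cells. Those with at least 5 UMIs per 10,000 over 12 macrophage markers were 20 of the 309 (6.47%), against 85 of the 2774 other pool cells (3.06%), and 0 and 2 cells in the stimulated library. Summed over the list, the level was 1681 CPM in control S phase cells against 595 CPM in the others, and 12.8 against 13.9 CPM in the stimulated library. In the control, 6 of the 7 measured macrophage markers were at least 1.5-fold higher in S phase cells, against 4.97% of all genes. C1qb, a complement subunit made by macrophages, was at 195 against 52.1 CPM, 3.75-fold higher (95% interval 3.51 to 4.01). With macrophage and mesothelial marked cells left out, none of the 7 passed 1.5-fold and C1qb was at 5.13 against 4.87 CPM. The median cell had 0.581 macrophage marker UMIs per 10,000 among control S phase cells and 0.686 among the others. Mesothelial marked cells were 5 of the control S phase cells (1.62%) against 55 of the others (1.98%), and 1 against 27 in the stimulated library. For endothelial markers 2 control S phase cells passed the same limit, against 1 of the others. Summed endothelial markers were at 41.3 against 12.2 CPM in the control and at 12.8 against 11.8 CPM in the stimulated library. Endothelial marked cells were kept where macrophage and mesothelial marked cells were left out.

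What the rule used is given as a description. Among the helicase ring genes, Mcm5 was at 34.1 CPM in control S phase cells against 2.46 CPM in the other pool cells, and at 48.0 against 6.03 CPM in the stimulated library. Mcm3 was at 38.6 against 3.71 and at 49.4 against 6.78 CPM, Mcm4 at 25.4 against 3.88 and at 33.7 against 6.88 CPM, and Mcm6 at 46.7 against 6.86 and at 65.3 against 12.4 CPM. All 4 ring genes were thus higher in the S phase cells of both libraries, as the choice of cells on them requires. Pcna, the sliding clamp, was at 28.1 against 6.08 CPM in control and 30.9 against 6.27 CPM in stimulated cells. Tyms was at 84.2 against 17.2 and at 78.6 against 17.1 CPM, and Gins2 at 55.7 against 11.1 and at 74.2 against 16.5 CPM. The largest ratios were those of Cdc6, Ccne2 and Clspn. Cdc6, which loads the helicase at origins, was at 11.2 against 0.505 and at 20.6 against 1.16 CPM. Ccne2, a cyclin E that drives entry into S phase, was at 24.2 against 1.22 and at 24.2 against 1.67 CPM, and Clspn, the checkpoint adaptor claspin, at 18.9 against 0.592 and at 39.4 against 2.66 CPM.

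Since the rule genes are known E2F targets, their promoters were searched for the E2F letters TTTCGCGC and TTTGGCGC on both strands, in the 250 bases before the RefSeq start (GRCm38.p6). Of the 10 rule genes 7 had a promoter in the table, and Mcm5 and Mcm6 held a match, against 0.7586% of all 27025 genes. Among 7 mitotic rule genes with a promoter Cdk1 held a match, and among 10 of the 12 genes named further on for their folds Uhrf1 did. Mcm5 and Mcm6 are shown because they are the only S phase rule genes in the table with these exact letters, 160 bases before the start in each, read 5′ to 3′ on the strand of the gene, with the matches in capitals. Mcm5 lies at chr8:75109349-75109508 on the + strand and Mcm6 at chr1:128359706-128359865 on the - strand.
Mcm5: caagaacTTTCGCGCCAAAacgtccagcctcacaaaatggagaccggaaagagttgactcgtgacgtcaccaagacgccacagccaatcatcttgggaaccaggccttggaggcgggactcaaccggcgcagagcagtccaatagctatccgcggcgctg
Mcm6: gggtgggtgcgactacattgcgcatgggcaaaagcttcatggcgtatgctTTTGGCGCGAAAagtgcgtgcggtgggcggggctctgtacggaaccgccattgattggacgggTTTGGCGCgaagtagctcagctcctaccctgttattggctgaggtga
In Mcm5 a match of each motif overlaps, starting 153 and 149 bases before the start. In Mcm6 a like overlapping pair starts at 110 and 106 bases and another match at 47 bases. The letters TTTGAA of the cell cycle homology region, an element of late cell cycle promoters, were in none of the 7 S phase rule genes with a promoter. They were in 5 of 7 mitotic rule genes (Mki67, Top2a, Cdk1, Ube2c and Ccnb2), against 18.26% of all genes. A match describes these letters only and is no evidence of binding.

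Beyond the rule, S phase cells differed from the other pool cells mostly by genes that were higher. Of 4609 genes outside the rule that reached the floor on average over the 4 sums of cells, 229 (4.97%) were at least 1.5-fold higher in the control S phase cells and 23 (0.499%) were lower by as much. In the stimulated library 205 (4.45%) were higher and 34 (0.738%) lower. Higher in both libraries were 149 genes (3.23%), 65.1% of the control and 72.7% of the stimulated higher genes, and lower in both were 6 (0.130%). At 2-fold or more, 69 control and 50 stimulated genes were higher, 45 of them in both libraries. The floor is a mean over sums that include the S phase cells, so that a gene low elsewhere can pass by its level in them, and counts and medians are descriptions. At a floor of 50 CPM 94 and 83 genes were higher and 5 and 10 lower. Without macrophage and mesothelial marked cells 222 and 203 were higher and 27 and 36 lower. The median log2 fold of all 4609 genes was 0.07 in control and 0.09 in stimulated cells. Scaled by the median of ratios, which shifted this median by -0.0950 to -0.02 and by -0.10 to -0.02, the control had 158 higher and 56 lower genes and the stimulated library 128 and 59. With the mitotic limit at 2 in place of 4 UMIs per 10,000, the stimulated library had 91 higher genes, and with cells scored on counts thinned to 5000 UMIs the control had 50, with 824 cells chosen because of ties at the threshold.

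**Figure D2:**
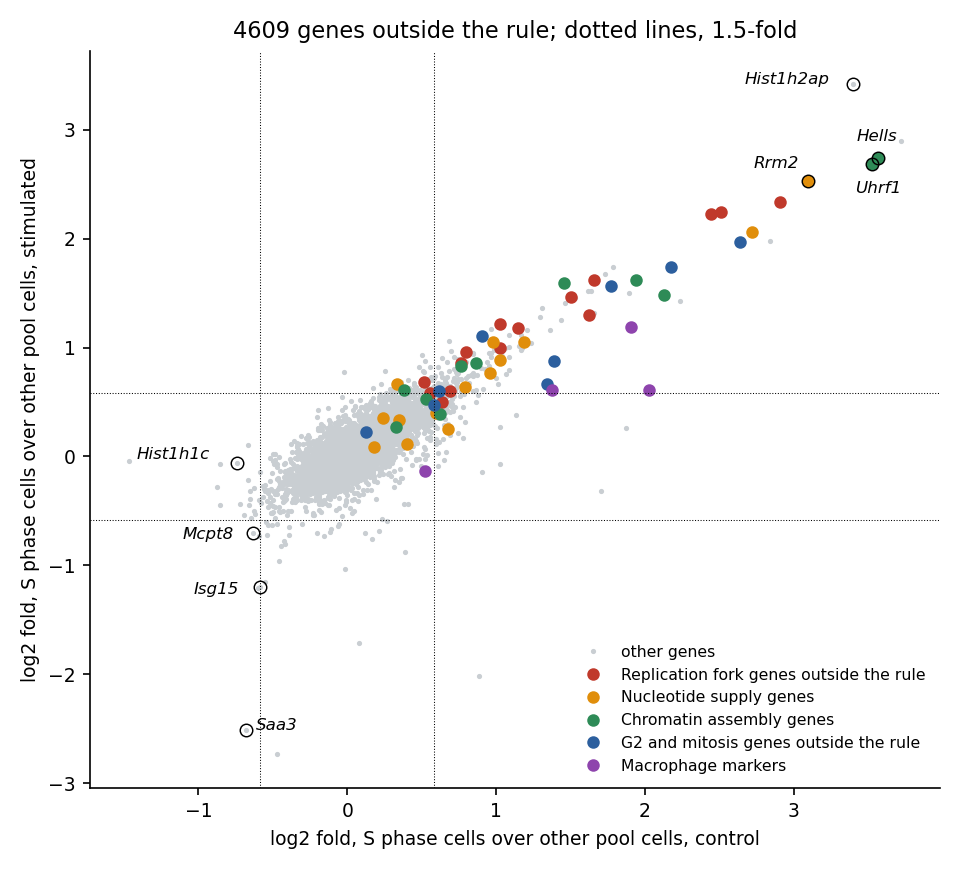
Log2 fold of S phase cells over the other pool cells in the control (horizontal axis) and stimulated (vertical axis) library for 4609 genes outside the rule, 1 point per gene, with gene lists in colour and dotted lines at 1.5-fold. Replication, nucleotide, chromatin and mitotic genes lie at the upper right, Hist1h2ap is at 3.39 and 3.42, and the macrophage markers reach further right than up.

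Of the 149 genes higher in both libraries (3.23% of 4609), 42 were in the cell cycle lists. Their shares ran from 12 of 15 measured fork genes to 0 of 13 inhibitor, arrest and p53 target genes. The 12 largest by the smaller of the 2 folds, leaving out ribosomal protein, mitochondrial and Rik or Gm symbols, were of several kinds: the histone gene Hist1h2ap, the chromatin genes Hells and Uhrf1, the nucleotide enzymes Rrm2 and Tk1, the fork genes Rpa2, Gmnn and Lig1, the PHD finger gene Tcf19, the chromosome genes Hmgb2 and Smc2, and cyclin E1 (Ccne1). Their smaller fold ran from 10.5 for Hist1h2ap to 3.35 for Ccne1, and 2810417H13Rik, left out by its symbol and described with the repair genes, was at 7.43. All but Hist1h2ap and Hmgb2 were under 20 CPM in the other pool cells of both libraries. They thus passed the floor only through the S phase cells, which favours large folds upward, and the ranking is a description. Tcf19 was at 37.2 against 5.21 CPM in the control, 7.15-fold higher (6.01 to 8.50), and at 45.2 against 11.5 CPM in the stimulated library, 3.95-fold (3.43 to 4.54). Among the 149 were also the macrophage markers C1qa, C1qb and Lyz2, with only 1, 1 and 3 UMIs in the stimulated S phase cells.

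Replication fork genes outside the rule were higher together. Of 48 listed, 15 were measured, and 13 were at least 1.5-fold higher in the control, 13 in the stimulated and 12 in both libraries, with none lower. Over all genes, 4.97% of control and 4.45% of stimulated genes were as much higher, and 0.499% and 0.738% lower. The median log2 fold of the fork genes was 1.02 in control and 1.18 in stimulated cells. At a floor of 50 CPM these medians were 0.66 and 0.64. Rpa2, a subunit of the complex that coats single-stranded DNA, was at 32.0 CPM in control S phase cells against 4.27 CPM, 7.49-fold higher (6.19 to 9.05). In the stimulated library it was at 44.6 against 8.84 CPM, 5.04-fold (4.35 to 5.84). Gmnn (geminin), which keeps origins from firing again, was at 53.5 against 9.39 and at 64.4 against 13.6 CPM, and Lig1, the ligase that joins lagging strand fragments, at 55.5 against 10.2 and at 75.5 against 16.1 CPM. Tipin, part of the fork protection complex, was at 101 against 32.0 CPM, 3.15-fold higher (2.88 to 3.45), and at 126 against 41.0 CPM, 3.07-fold (2.83 to 3.33).

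The abundant fork genes Pole4 and Rnaseh2c stood closer to the other cells. Pole4, a histone-fold subunit of DNA polymerase epsilon, was at 154 against 107 CPM in the control, 1.43-fold (1.34 to 1.53), and at 111 against 69.1 CPM in the stimulated library, 1.60-fold (1.48 to 1.73). Rnaseh2c, a subunit of the nuclease that removes ribonucleotides from DNA, was at 84.4 against 54.2 CPM, 1.56-fold, and at 92.3 against 65.2 CPM, 1.42-fold. In single cells, the summed fork genes had a median of 11.9 UMIs per 10,000 in control S phase cells against 4.89 in the others, and 14.4 against 5.55 in the stimulated library. Over the 90th percentile of the other cells lay 75.7% of control and 75.9% of stimulated S phase cells, so that these genes, which the rule did not use, were high in most S phase cells.

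**Figure D3:**
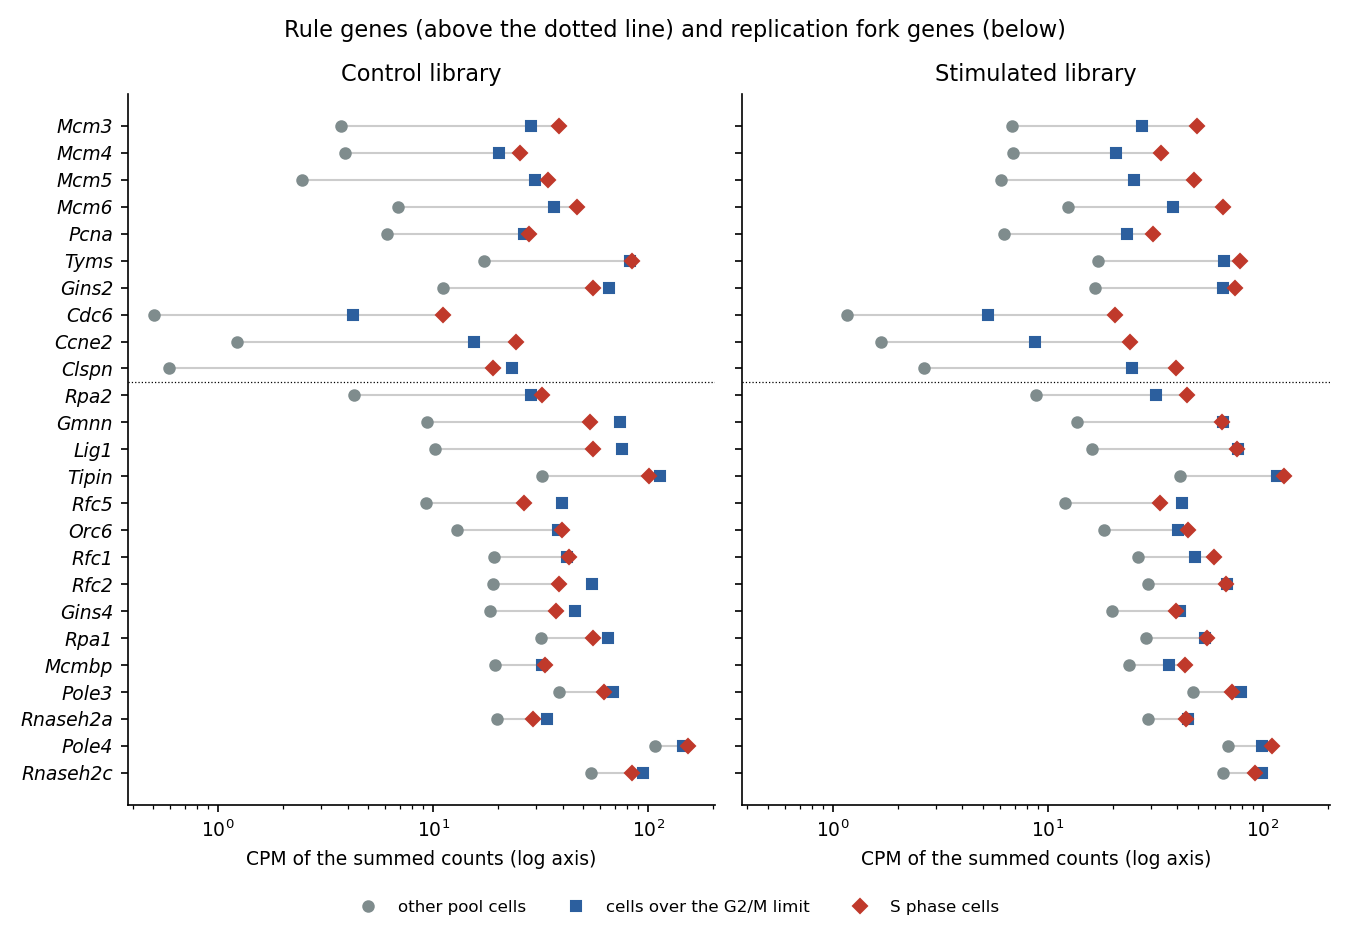
Level in CPM (horizontal log axis) of the 10 rule genes and the 15 measured replication fork genes (rows) in S phase cells (red), the other pool cells (grey) and cells over the limit on mitotic genes (blue), in the control (left) and stimulated (right) library. Each of the 15 fork genes is higher in S phase cells than in the other pool cells, from 1.42-fold for Rnaseh2c in the stimulated library to 7.49-fold for Rpa2 in the control.

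Genes that supply deoxynucleotides were higher in S phase cells. At least 1.5-fold higher were 9 of 14 measured in control and 8 in stimulated cells, against 4.97% and 4.45% of all genes. None was lower by as much, against 0.499% and 0.738% of all genes. The median log2 fold of the list was 0.73 and 0.65. Rrm2, the regulated small subunit of ribonucleotide reductase, was at 50.3 against 5.89 CPM in the control, 8.54-fold higher (7.31 to 9.97), and at 55.7 against 9.63 CPM in the stimulated library, 5.78-fold (5.05 to 6.61). Tk1, thymidine kinase, was at 37.8 against 5.75 CPM, 6.59-fold (5.56 to 7.79), and at 54.6 against 13.1 CPM, 4.17-fold (3.66 to 4.73). Dut, which clears dUTP, was 2.03-fold and 1.84-fold higher, and Dtymk, thymidylate kinase, 1.94-fold and 1.70-fold. Impdh2, the step toward guanine nucleotides, was at 119 against 90.1 CPM in control and at 157 against 145 CPM in stimulated cells.

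Chromatin assembly and maintenance methylation genes were mostly higher, Hells and Uhrf1 by the largest folds of those named. In each library 8 of 11 measured genes were at least 1.5-fold higher, 7 of them in both, and none was lower. Over all genes, 4.97% of control and 4.45% of stimulated genes were as much higher, and 0.499% and 0.738% lower. Hells, a remodeller needed for DNA methylation, was at 74.3 against 6.29 CPM in the control, 11.8-fold higher (10.3 to 13.6), and at 80.8 against 12.1 CPM in the stimulated library, 6.70-fold (5.97 to 7.51). It was seen in 178 of 309 control S phase cells. Uhrf1, which brings the maintenance methyltransferase to newly copied DNA, was at 37.1 against 3.22 CPM, 11.5-fold (9.46 to 14.0), and at 51.1 against 7.96 CPM, 6.43-fold (5.56 to 7.42). In both cases the S phase cells of the 2 libraries were closer to each other than the other pool cells were. Ssrp1, a subunit of the histone chaperone FACT, was 1.70-fold and 1.77-fold higher, Rbbp7, a histone-binding subunit, 1.54-fold and 1.31-fold, and Tonsl, which reads new histones at forks, 1.25-fold and 1.21-fold.

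Clustered histone genes, whose replication-dependent transcripts mostly lack a poly(A) tail, went both ways. Of 68 listed, 3 were measured. Hist1h2ap was at 30.4 CPM in control S phase cells against 2.89 CPM, 10.5-fold higher (8.51 to 13.01), and at 437 against 40.9 CPM in the stimulated library, 10.7-fold (10.1 to 11.3). The intervals of the folds overlap, while the level differed 14.4-fold (12.4 to 16.7) between the S phase cells of the libraries. Hist1h2ap is a member of a family of near copies: all 11 windows of its 3′ end matched another listed gene, so that its level is uncertain. Hist1h2bc and Hist1h1c, which are also made outside S phase, went the other way. Hist1h2bc was at 288 against 450 CPM in the control, 1.56-fold lower (1.49 to 1.64), and at 111 against 164 CPM in the stimulated library, 1.48-fold lower (1.37 to 1.60). Hist1h1c, a linker histone, was at 59.1 against 98.8 CPM in the control, 1.67-fold lower (1.51 to 1.86), and at 26.0 against 27.1 CPM in the stimulated library.

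Among 7 measured histone variants outside the clusters, 3 passed 1.5-fold in the control (H2afx, H2afz and H2afv) and H2afz alone in the stimulated library. Over all genes, 4.97% of control and 4.45% of stimulated genes were as much higher. H2afz, which encodes the H2A.Z variant found at promoters, was at 808 against 381 CPM in the control, 2.12-fold higher (2.06 to 2.19), and at 1036 against 515 CPM in the stimulated library, 2.01-fold (1.959 to 2.066). The replacement histone genes H3f3a and H3f3b were both 1.16-fold higher in the control, and 1.16-fold and 1.31-fold higher in the stimulated library. H2afx and H2afv were named after their values were seen.

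Among genes that control entry into S phase, cyclin E1 was higher in both libraries, while cyclins D1 and D2 were within 1.5-fold in the stimulated one. Of 9 measured, 5 were higher in the control (Ccnd1, Ccne1, E2f1, Cks1b and Cks2), the same genes but Ccnd1 in the stimulated library, and none was lower. Over all genes, 4.97% of control and 4.45% of stimulated genes were higher by 1.5-fold, and 0.499% and 0.738% lower. Ccne1 was at 38.8 against 11.2 CPM, 3.45-fold higher (2.97 to 4.00), and at 49.0 against 14.6 CPM, 3.35-fold (2.93 to 3.81). Cks1b, a small subunit bound to cyclin-dependent kinases, was at 291 against 141 and at 340 against 179 CPM, 2.06-fold and 1.90-fold. Cdk4, the kinase partner of D-type cyclins, was 1.47-fold and 1.39-fold higher. Ccnd2, cyclin D2, was at 567 against 588 CPM in control and at 285 against 371 CPM in stimulated cells, 1.302-fold lower (1.24 to 1.37). Ccnd1, cyclin D1, was at 67.0 against 44.0 CPM in the control, 1.52-fold higher (1.37 to 1.69), and at 267 against 283 CPM in the stimulated library. Ccnd1, E2f1 and Cks2 were named after their values were seen.

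Genes that restrain the cycle were slightly lower as a group and mostly within 1.5-fold. Of 13 measured inhibitor, arrest and p53 target genes, none passed 1.5-fold in the control and 1, Btg2, was lower in the stimulated library, at 64.1 against 104 CPM, 1.62-fold lower (1.46 to 1.79), named after its value was seen. The median log2 fold was -0.17 and -0.24, against 0.07 and 0.09 over all genes. Meg3, an imprinted long noncoding RNA, was at 838 against 1232 CPM in the control, 1.47-fold lower (1.43 to 1.51), and at 770 against 956 CPM in the stimulated library, 1.24-fold lower (1.21 to 1.28). Cdkn1a, the p21 inhibitor of cyclin-dependent kinases, was at 284 against 402 CPM, 1.42-fold lower (1.35 to 1.49), and at 303 against 399 CPM, 1.32-fold lower (1.26 to 1.38). Phlda3, a p53 target, was at 220 against 223 and at 202 against 227 CPM. Cdkn2c, the p18 inhibitor, went the other way at 1.33-fold and 1.47-fold higher. Summed per cell, the list had a median of 17.0 UMIs per 10,000 in control S phase cells against 23.4, and 17.9 against 22.5 in the stimulated library. Meg3, the most abundant member, weighs heavily in this sum. In the control it gave 838 of the 1948.5 CPM of the list in S phase cells and 1232 of 2544 CPM in the others.

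Of 30 repair and checkpoint genes 4 reached the floor. Among these, Usp1 and Parp1 were under 20 CPM in the other pool cells of both libraries and reached it only through the S phase cells. Of the 4, 3 were at least 1.5-fold higher in control and 4 in stimulated cells, against 4.97% and 4.45% of all genes. 2810417H13Rik, which encodes the PCNA-binding protein PCLAF, was at 175 against 13.3 CPM in the control, 13.2-fold higher (12.02 to 14.5), and at 274 against 36.8 CPM in the stimulated library, 7.43-fold (6.97 to 7.92). Usp1, which removes ubiquitin from PCNA, was 3.31-fold (2.86 to 3.83) and 3.20-fold (2.81 to 3.64) higher. Parp1, the strand break sensor, was at 22.2 against 15.6 CPM, 1.42-fold, and at 31.6 against 16.5 CPM, 1.91-fold.

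Mitotic genes outside the rule were also higher in S phase cells, although the pool was limited on 8 of their kind. In each library 7 of 9 measured genes passed 1.5-fold, and the median log2 fold was 1.34 in control and 0.88 in stimulated cells. Over all genes, 4.97% of control and 4.45% of stimulated genes were as much higher. Hmgb2, a chromatin protein that peaks in G2, was at 74.3 against 11.9 CPM, 6.22-fold higher (5.52 to 6.999), and at 116 against 29.6 CPM, 3.92-fold (3.596 to 4.28). Smc2, a condensin subunit, was 4.52-fold (3.79 to 5.39) and 3.35-fold (2.90 to 3.86) higher. Ube2s, a ubiquitin-conjugating enzyme of the anaphase-promoting complex, was 1.53-fold and 1.51-fold higher, and Tubb4b, a tubulin, was at 118 against 78.8 and at 130 against 93.7 CPM. Of the limited genes, Top2a was at 27.1 against 4.41 CPM in control and at 36.9 against 10.7 CPM in stimulated cells, and Cenpf at 9.46 against 12.02 and at 13.3 against 10.8 CPM. The median mitotic score was 1.56 UMIs per 10,000 in control S phase cells against 0.489, and 2.21 against 0.911 in the stimulated library.

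Cells over the mitotic limit differed from S phase cells in both directions. Against S phase cells of the same library, they had lower Cdc6, at 4.25 against 11.2 CPM in control and 5.28 against 20.6 CPM in stimulated cells, and lower Ccne2, at 15.6 against 24.2 and 8.68 against 24.2 CPM. Hells was at 53.1 against 74.3 CPM in control and at 45.9 against 80.8 CPM in stimulated cells, while the summed chromatin list was at 969 against 847 CPM and at 934 against 958 CPM. The other summed lists were also about as high over the limit or higher. Fork genes outside the rule were at 1431 against 1244 CPM in control and at 1422 against 1457 CPM in stimulated cells. Nucleotide supply genes were at 1553 against 1231 and at 1452 against 1283 CPM, and repair genes at 730 against 454 and at 717 against 653 CPM. High levels of these lists were thus shared by S phase cells and cells over the limit. In the other direction, Tk1 was at 114 against 37.8 CPM and at 114 against 54.6 CPM, and Cks1b at 586 against 291 and at 598 against 340 CPM. Hist1h2ap was at 83.2 against 30.4 CPM and at 781 against 437 CPM. Top2a was 5.29-fold higher than in S phase cells in control and 3.77-fold in stimulated cells, as the limit on it requires.

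Along the score, the groups outside the rule were read in 7 intervals of cells. From the lowest 50% of the pool to its top 5%, the summed fork genes outside the rule went from 4.76 to 15.4 UMIs per 10,000 in the control and from 5.38 to 17.0 in the stimulated library. Between the 80th and 90th percentile, just outside the S phase cells, they were at 6.61 in control and 9.05 in stimulated cells. Nucleotide supply genes went from 6.49 to 13.8 and from 7.13 to 14.2, and chromatin genes from 3.30 to 10.4 and from 3.79 to 11.1. Repair genes stayed near their low level until the 80th percentile, at 0.665 to 0.929 in the control, and reached 6.55 in the top 5%. In the stimulated library they went from 0.990 to 7.94. Clustered histones took opposite courses, from 6.54 down to 4.29 in the control and from 2.91 up to 7.86 in the stimulated library. In S phase cells Hist1h2bc held 288 of the 449 CPM of the group in the control, and Hist1h2ap 437 of 645 CPM in the stimulated library.

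**Figure D4:**
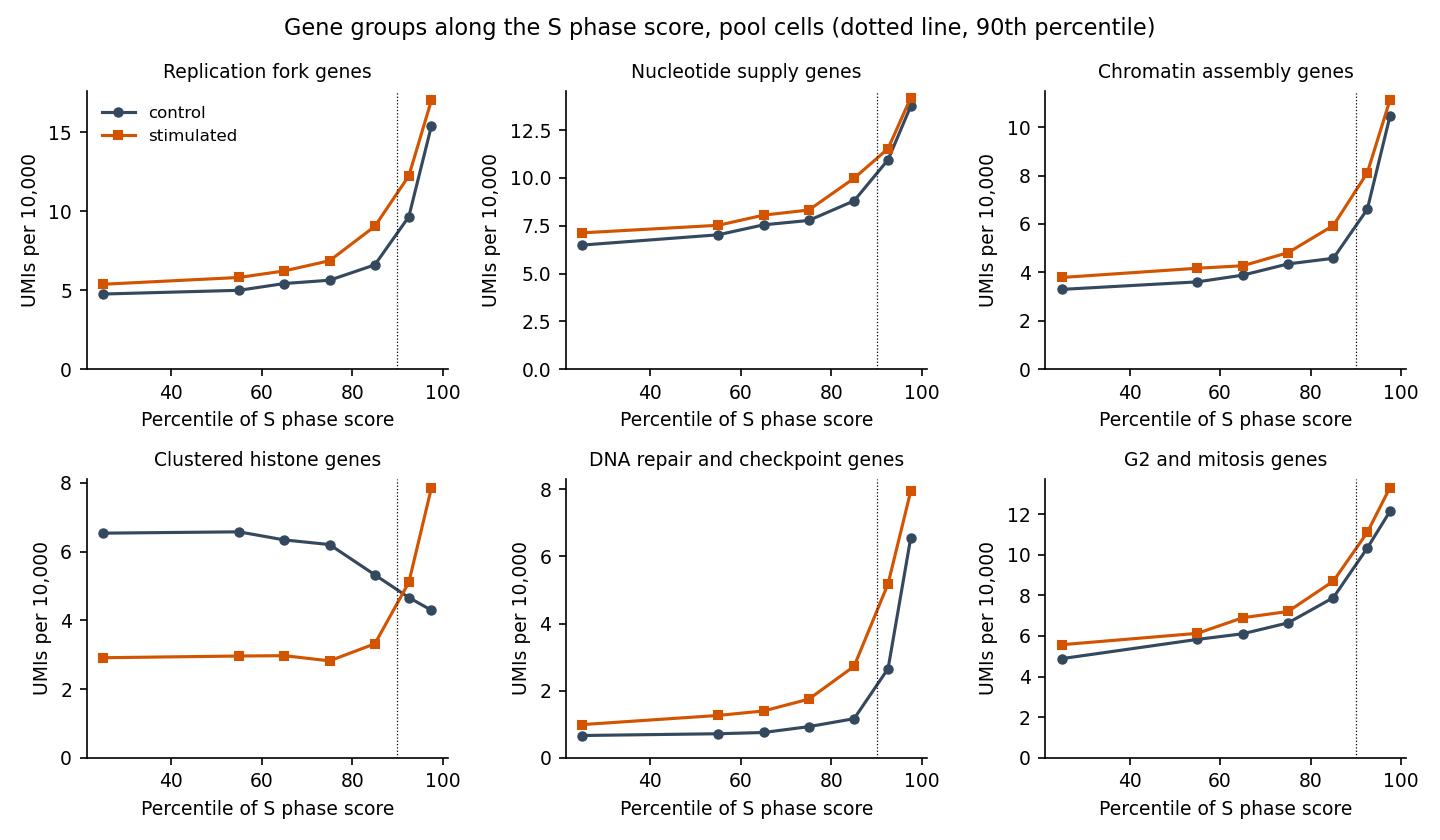
Summed UMIs per 10,000 of 6 gene groups outside the rule (vertical axes, from 0) by percentile of the S phase score in the pool (horizontal axes, points at the middle of each interval of cells), for the control (dark circles) and stimulated (orange squares) library. The dotted line marks the 90th percentile. Each group but the clustered histones ends highest in the top 5% in both libraries, while the clustered histones end lowest in the control, at 4.29, and highest in the stimulated library, at 7.86.

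Ribosome biogenesis genes, which make ribosomal RNA and assemble ribosomes, were partly higher. Of 18 measured genes, 6 were at least 1.5-fold higher in control and 5 in stimulated cells, 4 of them in both, with medians of 0.52 and 0.48 on the log2 scale. Over all genes, 4.97% of control and 4.45% of stimulated genes were as much higher. Nop56, a core protein of the particles that modify ribosomal RNA, was at 76.5 against 36.1 CPM, 2.12-fold higher (1.92 to 2.34), and at 81.1 against 43.1 CPM, 1.88-fold (1.71 to 2.07). Ncl (nucleolin) was 1.51-fold and 1.46-fold higher, Nhp2, an RNA modification subunit, 1.39-fold and 1.43-fold, and Npm1 (nucleophosmin) 1.13-fold and 1.02-fold.

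Ribosomal protein genes were not. None of 81 passed 1.5-fold either way, and their median log2 fold was -0.10 in both libraries. Their sum was 314764 CPM in control S phase cells against 341598 CPM, and 343113 against 367911 CPM in the stimulated library. Rps19 was 1.17-fold lower in the control (1.16 to 1.18) and 1.11-fold lower in the stimulated library (1.10 to 1.12), and Rpl7l1, a relative of a ribosomal protein, went the other way at 1.36-fold and 1.35-fold higher.

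Energy and biosynthesis genes stayed close to the other cells. None of 28 respiratory chain and ATP synthase genes passed 1.5-fold; Cycs (cytochrome c) was 1.44-fold and 1.45-fold higher, while Cox4i1 was 1.12-fold lower in both. Of 14 glycolysis genes none passed in control and 1 in stimulated cells, the lactate exporter Slc16a3, at 26.7 against 15.5 CPM, 1.72-fold higher (1.45 to 2.03). It was at 91.2 against 76.6 CPM in the control. Pkm, the last enzyme of glycolysis, was 1.26-fold and 1.12-fold higher. None of 17 cholesterol and fatty acid genes passed, with Fdps, a mevalonate pathway enzyme, at 1.35-fold and 1.25-fold higher. Phgdh, which opens the serine pathway and so feeds nucleotide synthesis, was the 1 gene of 14 in the ATF4 and endoplasmic reticulum list to pass in the control, at 257 against 150 CPM, 1.72-fold (1.63 to 1.82), and was at 173 against 116 CPM in the stimulated library, 1.49-fold (1.39 to 1.59).

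Genes of the fibroblast and myofibroblast state were nearly level. None of 17 contractile genes and none of 29 collagen and matrix genes passed 1.5-fold in either library. Acta2, smooth muscle actin, the usual mark of myofibroblasts, was at 3753 against 3028 CPM in control S phase cells, 1.24-fold higher (1.22 to 1.26), and at 1194 against 1021 CPM in the stimulated library, 1.17-fold (1.14 to 1.20). Tns1, an adhesion protein, was 1.27-fold and 1.21-fold lower. Among matrix genes Fn1 (fibronectin) was 1.33-fold lower in the control (1.29 to 1.36) and 1.31-fold lower in the stimulated library (1.27 to 1.36), and Thbs1 (thrombospondin) 1.27-fold and 1.29-fold lower. Mgp and Sparc differed by less than 1.10-fold in both libraries.

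Lipid, chemokine and stress lists had few members past 1.5-fold. Of 7 PPARG target and lipid storage genes only Fabp4, a fatty acid binding protein, passed, in the control, at 21.4 against 10.5 CPM, 2.04-fold higher (1.68 to 2.46). In that library 5 cells held 58.7% of its 138 UMIs in S phase cells, and without macrophage and mesothelial marked cells it was at 10.3 against 9.18 CPM. In the stimulated library Fabp4 was at 169 against 140 CPM. Spp1 (osteopontin), also made by macrophages, was at 652 against 348 CPM in the control, 1.87-fold higher (1.81 to 1.94), and 1.299-fold higher (1.24 to 1.36) without those cells, and at 3378 against 3718 CPM in the stimulated library. None of 14 metallothionein, iron and oxidant defence genes passed; Mt1, a metallothionein, was at 2499 against 3476 CPM in the control, 1.39-fold lower, and at 14059 against 14736 CPM in the stimulated library. Of 11 chemokine and acute phase genes 2 were higher (Spp1 and Ccl2) and 2 lower (Saa3 and Serpinb2) in the control, and Saa3 was lower in the stimulated library. Without macrophage and mesothelial marked cells the control had none higher and 1 lower. Of 13 immediate early genes Fosl1 was higher in the control and Dusp1 lower in the stimulated library. Of 5 interferon genes Isg15 was lower in both. Ccl2, Serpinb2 and Dusp1 were named after their values were seen.

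The 6 genes lower in both libraries were Sncg, Saa3, Mcpt8, Gas6, Trp53inp2 and Isg15, and Hist1h2bc and Kdm5b followed, each under 1.5-fold in 1 library. Without macrophage and mesothelial marked cells Saa3 was at 33.5 against 45.8 CPM in the control, 1.37-fold lower, and no longer passed, while the other 5 did in both libraries. Gas6, a ligand of the TAM receptor kinases named for its rise in arrested cells, was at 27.9 against 42.4 CPM in the control, 1.52-fold lower (1.304 to 1.78), and at 22.0 against 50.8 CPM in the stimulated library, 2.31-fold lower (1.95 to 2.76). Sncg (gamma-synuclein) was at 6.36 against 13.5 CPM, 2.12-fold lower (1.55 to 2.98), and at 27.3 against 43.8 CPM, 1.61-fold lower (1.38 to 1.88). Trp53inp2, an autophagy factor, was 1.51-fold (1.31 to 1.75) and 1.66-fold (1.37 to 2.03) lower. Kdm5b, a histone demethylase, was 1.46-fold (1.26 to 1.71) and 2.22-fold (1.79 to 2.78) lower.

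Of the other 3, Saa3 and Mcpt8 had much of the control count in few cells. For Isg15, 5 cells held 37.3% of the UMIs in control S phase cells, and for Sncg 29.3%. Saa3, an acute phase protein, was at 51.0 against 81.9 CPM in the control, and had 4 UMIs in all stimulated S phase cells, and in the control 1 of the other pool cells alone held 1119 of their 4700 UMIs. For Mcpt8, a protease of basophils, 5 cells held 56.0% of the UMIs in control S phase cells, where it was at 24.7 against 38.3 CPM, 1.55-fold lower, and at 32.1 against 52.2 CPM, 1.63-fold lower, in the stimulated library. In the control its direction reversed with cells chosen on the 6 rule genes other than Mcm3 to Mcm6. Isg15, an interferon-induced ubiquitin-like protein, was at 23.7 against 35.7 CPM, 1.503-fold lower, and at 8.42 against 19.4 CPM, 2.30-fold lower. In the control it reversed with the lower mitotic limit and with thinned scores.

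Between the libraries, the S phase cells differed as the other pool cells did. Of 4618 genes, 130 (2.82%) were at least 2-fold higher in stimulated than in control S phase cells and 220 (4.76%) at least 2-fold lower. Among the other pool cells these were 144 (3.12%) and 226 (4.89%). Of 17 contractile genes 8 were lower in stimulated S phase cells, with a median log2 fold of -0.97, and 10 in the other cells, at -1.07. Of 29 matrix genes 5 were higher and 13 lower in S phase cells, and 5 and 14 in the other cells. Of 7 PPARG target and lipid storage genes 4 were higher in S phase cells and 4 in the other cells. None of the 15 fork genes outside the rule was 2-fold apart in S phase cells, with a median log2 fold of 0.32, and 1 was higher in the other cells, with a median of 0.37. The score threshold was higher in the stimulated library, and its part in the levels of replication genes was not tested.

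Serpina3n, a secreted protease inhibitor, had the largest stimulated excess among genes with a mean of 50 CPM or more, at 599 CPM in stimulated against 9.77 CPM in control S phase cells, 61.3-fold higher (47.8 to 79.9), and 73.0-fold higher in the other cells. Col15a1, a basement membrane zone collagen, was at 106 against 6.82 CPM, 15.6-fold higher (11.5 to 21.6), and Gda (guanine deaminase) at 135 against 15.2 CPM, 8.87-fold (7.19 to 11.05). Nme2, a nucleoside diphosphate kinase, was 12.6-fold higher, but 100% of its 3′ windows match other listed genes, so that its level is uncertain. In the other direction stood the macrophage genes Lyz2, with 5322 UMIs in control and 3 in stimulated S phase cells, and C1qb, with 1259 and 1. Igf1 and Igfbp5 came next by control excess, at 100.7-fold and 64.9-fold, and then Wisp2, at 352 against 6.86 CPM, 51.3-fold (38.1 to 70.8), and Dcn (decorin), at 199 against 7.02 CPM, 28.4-fold (21.1 to 39.2). All of these genes also differed in the same direction between the libraries in the other pool cells.

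Few genes differed by another fold between the libraries in S phase cells than in the other cells. At 2-fold or more these were 15 of 4618 (0.325%). Igfbp5 and Igf1, a binding protein of insulin-like growth factor and the factor itself, were lower in stimulated S phase cells than the other cells would give. Igf1 was at 188 against 1.87 CPM in control and stimulated S phase cells and at 178 against 6.11 CPM in the other cells, a 3.45-fold difference of folds (1.94 to 6.15). Igfbp5 was at 132 against 2.03 CPM and at 183 against 13.5 CPM, a 4.79-fold difference (2.76 to 8.32). These rest on 12 and 13 UMIs in the stimulated S phase cells. For Igfbp5, 5 cells held 40.1% of the 790 UMIs of the other stimulated cells. In control S phase cells 5 cells held 43.75% of the Igfbp5 UMIs. Mmp3, a matrix protease, and Ctla2a, a cysteine protease inhibitor, had a smaller stimulated excess in S phase cells than in the others. Mmp3 was at 118 against 40.9 CPM, 2.88-fold higher (2.50 to 3.33), against 11.7-fold in the other cells, and Ctla2a at 415 against 106 CPM, 3.91-fold, against 8.34-fold. In control S phase cells, for Ctla2a 1 cell held 356 of 684 UMIs, and for Mmp3 5 cells held 76.1% of 264. Hells and Uhrf1 also had a smaller stimulated excess in S phase cells. It was 1.09-fold (0.958 to 1.23) and 1.38-fold (1.16 to 1.64), against 1.92-fold and 2.47-fold in the other cells. They are not among the 4 genes chosen by ratio of folds, and the pattern was not particular to them. Of the 12 genes named as higher in both libraries, all but Hist1h2ap had a smaller stimulated excess in S phase cells. Tcf19 was at 1.21-fold against 2.20-fold, Hmgb2 at 1.57-fold against 2.48-fold and Rrm2 at 1.11-fold against 1.64-fold. For Lig1 and Ccne1 the 95% intervals include equal folds. The part of the higher stimulated threshold in this was not tested.

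Differences of folds in the other direction were smaller. Hist1h1c was lower in the control S phase cells alone, so that its stimulated to control ratio was 0.441 in S phase cells and 0.275 in the other cells, a 1.60-fold difference (1.33 to 1.94). Ankrd1, a stress-responsive muscle and fibroblast gene, was at 137 against 141 CPM in control and at 63.0 against 43.1 CPM in stimulated cells. This was a 1.496-fold difference (1.32 to 1.70), with 42.1% of the 404 Ankrd1 UMIs in stimulated S phase cells from 5 cells. Actg2, a smooth muscle actin, was at 587 against 677 CPM and at 72.8 against 56.6 CPM, a 1.48-fold difference (1.34 to 1.64), with 34.7% of its UMIs in stimulated S phase cells from 5 cells. For Slc16a3 the difference was 1.44-fold (1.20 to 1.74).

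**Figure D5:**
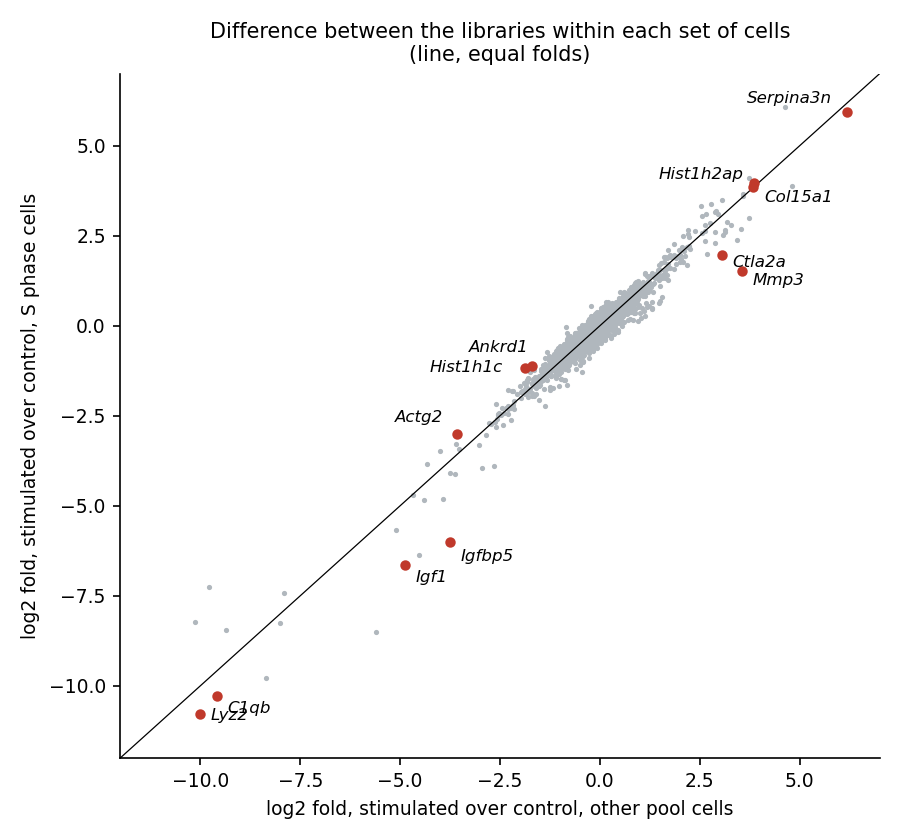
Log2 fold of the stimulated over the control library in the other pool cells (horizontal axis) and in S phase cells (vertical axis), 1 point per gene with a mean of at least 20 CPM, with the line of equal folds and named genes in red. Serpina3n and Hist1h2ap lie near the line, and Igfbp5, Igf1, Mmp3 and Ctla2a below it.

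The rule takes 10% of each pool, so the number of S phase cells says nothing of how many cells replicate. After thinning each cell of 5000 or more UMIs to 5000, 230 of 4077 control cells (5.64%, exact 95% interval 4.95 to 6.39) and 430 of 6708 stimulated cells (6.41%, 5.84 to 7.02) had at least 2 rule gene UMIs and under 2 mitotic ones. Without the mitotic condition the shares were 16.9% (15.7 to 18.0) and 23.8% (22.7 to 24.8). These intervals cover the counting of cells within each library and say nothing of a difference between cultures. With unthinned counts and the control threshold in both libraries, 7.58% of control and 9.50% of stimulated cells were pool cells over it. Cells over the mitotic limit were 994 of 4077 and 2729 of 6708.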

How the data were processed

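Single-cell RNA of 2 cultures was sequenced from transcript 3′ ends, per the labels. The authors deposited raw UMI counts of 27998 genes in each barcode. Per the file headers software version 3.0.2 wrote the matrices; Cell Ranger 1.3.1 and Seurat 3.0.0 stand in the submitters' processing notes. For genome build and annotation, nothing is given in the sources used here.

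Deposited counts were summed over S phase cells, the other pool cells and cells over the mitotic limit, and divided by each sum's total, giving CPM. A fold is a ratio of CPM, and its 95% interval is the exact one of a Poisson count split in 2. The 4609 genes averaging 20 CPM or more over the 4 pool sums were counted at 1.5-fold within libraries (4618 with measured rule genes at 2-fold between libraries). The code for folds and intervals was run on simulated Poisson sums. These leave out the spread between cells, so that the run checks the code only. No p-value was computed, since each group is 1 library.

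The members and gene lists were chosen with earlier results of these data known. Genes named are the rule genes, the 12 higher and 8 lower genes with the largest smaller-of-2 fold (no mitochondrial, ribosomal or unnamed gene models), the 3 most abundant and the most changed of each list, the 6 most different each way between libraries at a mean of at least 50 CPM, and 4 each way by ratio of folds; 1 gene so chosen is not reported here, and others are stated as named after their values were seen. Near copies were sought with minimap2 2.31 (90 base windows every 30 bases in the last 400 bases of GENCODE M21 transcripts, at most 2 mismatches). Of genes named, Hist1h2ap and Nme2 shared 100%, Lyz2 63.6%, Fdps 45.5%, Cycs 36.4%, Pcna 23.6%, Ctla2a 15.2%, Npm1 12.1%, Cks1b 9.68%, Meg3 6.61% and Saa3 6.06% of windows with another gene, and their counts are uncertain. The authors' annotation may differ. Python 3.11.15, scipy 1.17.1 and pandas 2.3.3 were used. Alternatives in cells, score, scaling and floor are in the closing section.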

Additional observations from a re-analysis of the deposited data

How the results depend on the processing

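Over 15 alternatives and 38 followed genes in both libraries, 883 of 1140 log2 folds moved by less than their error. A further 252 moved more with the same sign and 5 reversed. The floors of 5 and 50 CPM and no floor cannot change the fold of a gene. Each of them therefore adds 76 of 76 unmoved values to the 883 by construction. With under 2 mitotic UMIs per 10,000 the reversed values were -0.39 for Cenpf in the stimulated library and 0.0879 for Isg15 in the control; with scores thinned to 5000 UMIs they were 0.14 for Cenpf and 0.11 for Isg15 in the control; with the 6 rule genes other than Mcm3 to Mcm6 the value was 0.56 for Mcpt8 in the control. The counts that follow are genes 1.5-fold higher and lower in control, then in stimulated S phase cells, where the alternative moved them. At the 95th percentile they were 344 and 62, then 345 higher; at the 80th 137 and 2, then 113 and 22. With the lower mitotic limit the stimulated library had 91 and 15. Thinned scores gave 50 and 3, then 109 higher. Cells chosen on Mcm3 to Mcm6 alone gave 149 higher, then 118 and 16. Median-of-ratios scaling gave 56 lower, then 128 and 59, and totals without mitochondrial and ribosomal protein genes 39 lower in the control. A floor of 5 CPM gave 641 and 145, then 598 and 156; a floor of 50 CPM 94 and 5, then 83 and 10; no floor 1633 and 924, then 1602 and 966. Genes 2-fold apart between S phase cells of the libraries, 350 in all, became 817, 175 and 2103 at these floors. The median log2 fold of the fork genes outside the rule, 1.02 and 1.18, became 1.82 in the control at the 95th percentile, 0.48 in the same library under thinned scores, 0.68 in stimulated cells with the lower mitotic limit, 0.66 and 0.64 at a floor of 50 CPM, and 1.956 in the control without a floor. The other changes of cells, depth and weight, and leaving out macrophage and mesothelial marked cells, moved none of these counts by over 1.5 times. Of the main S phase cells, 60.8% of control and 42.0% of stimulated cells were also chosen with the lower mitotic limit. With a median of 7 score UMIs per cell, membership of single cells near the threshold was uncertain at this depth.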
